A study of Mus musculus with 6 samples.

Results

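The expression of 10 genes that mark cardiac fibroblasts was followed in cardiomyocyte cultures from which fibroblasts had been removed with antibodies to CD90. They are Thy1, Pdgfra, Ddr2, Tcf21, Dcn, Lum, Postn, Dpt, Mfap5 and Fbln1, found by symbol as 10 of the 55487 genes of the count table, each in 1 row. The cultures were wild-type mouse ventricular cardiomyocytes, taken from hearts at postnatal day 1 or 2, sorted negatively with CD90 antibodies and plated at 70000 per well on fibronectin in serum-containing medium. They rested for 12 h and then spent 48 h in 1 of 3 treatments: cyclopamine (5 µg/ml), an inhibitor of the Hedgehog signal transducer Smoothened, GANT61 (3 µM), an inhibitor of GLI1 and GLI2, the transcription factors downstream of Smoothened, or the solvent DMSO as control. The labels list 2 samples per treatment, but the table holds 1 column per treatment and does not say whether a column is 1 sample or a pool. No difference between treatments therefore has a replicate check, no test was possible, and every interval below covers counting error only. No library from cells before the CD90 sort was analysed here, so the extent of the depletion was not measured.

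Cardiac fibroblasts make and remodel the connective tissue of the heart, and most of them descend from the epicardium. They carry the platelet-derived growth factor receptor alpha (PDGFRα) and the collagen receptor DDR2, depend on the transcription factor TCF21 during development, and secrete collagen, small proteoglycans and elastic fibre proteins. CD90, the product of Thy1, is a small glycoprotein held in the outer membrane by a lipid anchor, and antibodies to it are a common handle for sorting fibroblasts. It is also found on neurons, on T cells of the mouse and on some vascular and mesenchymal cells. In bulk RNA fewer cells of a type and less RNA per cell cannot be told apart.

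Promoters were examined because both compounds act on the pathway that ends in GLI factors, which bind the sequence GACCACCCA. RefSeq promoter windows of GRCm38.p6, from 250 bases before to 50 bases after a transcription start, were matched by symbol for 6 of the 10 genes (Pdgfra, Tcf21, Ddr2, Postn, Dpt and Fbln1). Where a gene had several windows, the one nearest the annotated gene start was used. None of the 6 held GACCACCCA on either strand, and 0.253% of all 32851 promoter windows of this length did. The 7-base core CCACCCA, which lies inside that motif, was in 1 of the 6, Fbln1, and in 9.3% of all windows. The TATA box motif TATAAA was in 3 of the 6, Ddr2, Postn and Dpt, and in 13.6% of all windows, both strands counted. In Postn it began 26 bases before the start, in Dpt at base 13 of the transcript, and in Ddr2 185 bases before the start on the reverse strand, in a window that lies 21818 bases from the annotated gene start. The windows of Fbln1 and Postn are printed as the window with the GLI core motif and the window with TATAAA on the gene's strand upstream of the start. Capitals mark CCACCCA on the reverse strand (read as TGGGTGG) in Fbln1, and TATAAA in Postn.
Fbln1 promoter, chr15:85205699-85205998, plus strand: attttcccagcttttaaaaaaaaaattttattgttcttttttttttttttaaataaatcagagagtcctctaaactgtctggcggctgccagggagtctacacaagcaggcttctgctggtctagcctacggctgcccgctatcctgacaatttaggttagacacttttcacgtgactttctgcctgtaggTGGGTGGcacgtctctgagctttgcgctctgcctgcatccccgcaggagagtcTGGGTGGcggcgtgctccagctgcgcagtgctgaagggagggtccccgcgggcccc
Postn promoter, chr3:54360857-54361156, plus strand: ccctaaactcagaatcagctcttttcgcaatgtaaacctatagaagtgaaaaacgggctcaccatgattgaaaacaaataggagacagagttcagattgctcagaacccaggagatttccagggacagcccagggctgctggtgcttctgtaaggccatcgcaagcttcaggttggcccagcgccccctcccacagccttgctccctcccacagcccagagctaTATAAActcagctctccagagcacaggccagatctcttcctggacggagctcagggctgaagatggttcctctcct
A motif match describes these letters and shows no binding, and the windows were not used to choose or group the genes.

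The cultures carried cardiomyocyte RNA in large excess over fibroblast marker RNA. To compare genes, levels are given in TPM, which divides counts by the exon length of the gene and scales the sum of each library to 1000000. The 10 fibroblast markers summed to 188.8 TPM in DMSO, 171.9 in cyclopamine and 127.1 in GANT61. Summed over 10 cardiomyocyte markers, among them the myosin gene Myh6 and the troponin gene Tnnt2, the level was 71500 TPM, 62980 TPM and 60830 TPM. The fibroblast sum was thus 0.264%, 0.273% and 0.209% of the cardiomyocyte sum. Nppa alone held 46840, 38000 and 39000 TPM of the cardiomyocyte sum, so these percentages depend strongly on that gene. The fibroblast sum itself was lower in cyclopamine than in DMSO. Broader fibroblast and mesenchymal genes were far more abundant: 28 further matrix and secreted genes summed to 4089, 3899 and 3680 TPM, led by Sparc, a collagen-binding matrix protein, at 1290 TPM in DMSO. In DMSO Col1a1 was at 281.3 TPM, Col1a2 at 104.3 and Pcolce at 293.3, each above all 10 markers. Sparc, Vim and many of these genes are also made by other mesenchymal cells and by immature cardiomyocytes. Which cells made them here was not tested, and neither sum measures the share of fibroblasts. Library totals were 36661845 counts (DMSO), 38966515 counts (cyclopamine) and 35461530 counts (GANT61).

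Thy1 and Postn stood apart from the other 8 markers in every library. In DMSO Thy1 was at 85.9 TPM (counting interval 82.8 to 89.0), the 1592nd highest of all genes, and Postn at 64.4 TPM (62.8 to 65.9). Ddr2 followed at 11.3 TPM. Tcf21, Dpt and Pdgfra came next at 5.99, 5.92 and 5.08 TPM, and neighbours among these had overlapping intervals. Dcn, Fbln1, Mfap5 and Lum were lowest at 3.31, 2.57, 2.30 and 2.14 TPM, and again each neighbour's interval overlapped the next. Thy1, the gene of the antigen used for the sort, thus had the highest level per length of the 10 in DMSO. It did in cyclopamine too, at 75.2 TPM against 60.7 for Postn, whereas in GANT61 Postn was higher, at 52.0 TPM against 35.5. This order rests on the merged exon lengths, 2995 bases for Thy1 and 8702 for Postn, which can exceed the transcripts made. By counts Postn was above Thy1 in DMSO, at 6643 against 3050. The TPM ranks and shares in this paragraph carry the same limit, which the counting intervals do not cover. Thy1 made up 45.5% and Postn 34.1% of the summed TPM of the 10 markers in DMSO. In GANT61 Thy1 made up 27.9%, Postn 40.9% and Dcn 5.46%, against 1.75% for Dcn in DMSO. The order of the lower markers therefore changed: Dcn was the 4th lowest in DMSO, with 3 markers below it and 6 above, whereas in GANT61 it stood at 6.93 TPM (6.31 to 7.60), above Dpt at 5.10 and Pdgfra at 4.92.

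**Figure D1:**
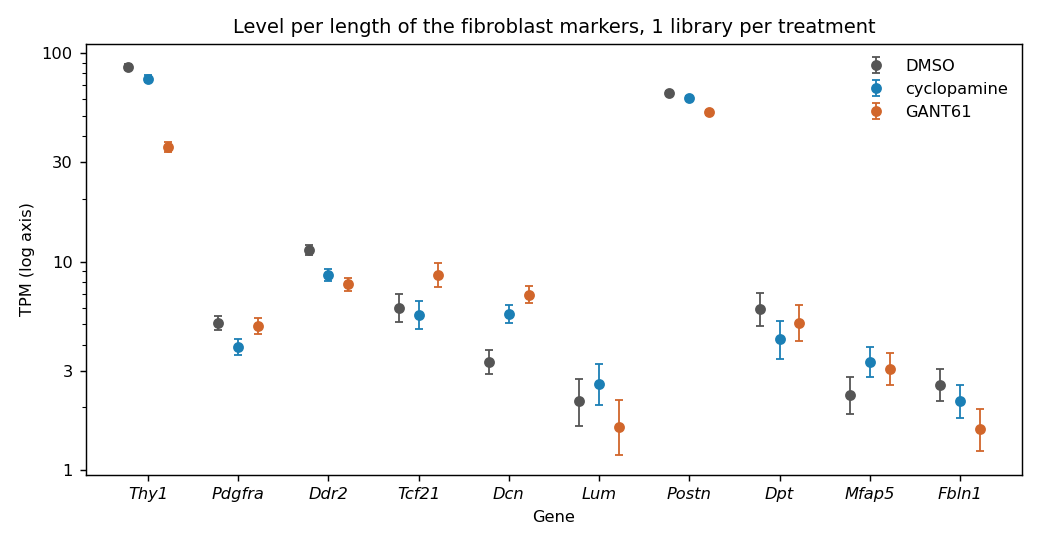
Levels of the 10 fibroblast markers in TPM on a log axis, 1 point per library, with 95% counting intervals as bars. Thy1 and Postn lie above 30 TPM in all 3 libraries and the other 8 below 12 TPM. Thy1 is lowest and Dcn highest in GANT61.

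For comparisons between treatments, counts were scaled by the trimmed mean of M values (TMM), given as CPM, the TMM-scaled count per 1000000 counts, and compared as log2 fold changes. A difference of 1.5-fold or more whose exact 95% counting interval left out 0 on the log2 scale is called here, and the gene is then higher or lower by size. All 10 markers passed the expression filter, with the lowest count, 45, for Lum in GANT61. In cyclopamine against DMSO 1 of 10, Dcn, was higher by size and 0 were lower, and of all 15576 genes 11.4% were called, 4.1% higher and 7.27% lower. In GANT61 against DMSO 1 of 10, again Dcn, was higher and 2, Thy1 and Fbln1, were lower, against 21.7% of all genes, 8.4% higher and 13.3% lower. The median log2 fold change over the 10 was -0.13 in cyclopamine and -0.28 in GANT61, against -0.004 and -0.007 over all genes. Both comparisons share the DMSO library. With 10 genes, these counts are near the share of all genes called.

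The surface proteins and receptors were led by Thy1 (chromosome 9, 44043384 to 44048579, plus strand, GRCm38), whose exons overlap no other annotated gene. Its counts were 3050 (DMSO), 2834 (cyclopamine) and 1207 (GANT61), or 82.8, 73.8 and 33.7 CPM. The DMSO and cyclopamine libraries were close and the GANT61 library was low. The log2 fold change was -0.17 in cyclopamine (counting interval -0.24 to -0.09) and -1.30 in GANT61 (-1.39 to -1.20), 2.45-fold lower. Directly between the inhibitors, Thy1 was 2.19-fold lower in GANT61 (log2 -1.13, -1.23 to -1.03).

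Pdgfra (chromosome 5, 75152292 to 75198215, plus strand), the receptor that marks most resident cardiac fibroblasts, had 604, 491 and 560 counts in the same order. Cyclopamine was the lowest library at -0.36 (-0.54 to -0.19), and GANT61 lay within counting error of DMSO at -0.07 (-0.24 to 0.10). Antisense and other short gene models cover 6.5% of its exon bases, and the strand setting of the counting is not given. Thy1 and Pdgfra therefore parted in GANT61: the ratio of their TPM was 16.9 in DMSO, 19.3 in cyclopamine and 7.21 in GANT61. Ddr2 (chromosome 1, 169972307 to 170110762, minus strand), a receptor tyrosine kinase that binds fibrillar collagen, had 1246, 1006 and 820 counts. It was lower in both inhibitor libraries, at -0.37 (-0.49 to -0.25) and -0.56 (-0.69 to -0.44), under the 1.5-fold limit (0.585 on the log2 scale) in each. With genes required to reach 5 CPM in 2 libraries its value in GANT61 was -0.59 and passed the limit.

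Tcf21 (chromosome 10, 22817281 to 22820174, minus strand), the basic helix-loop-helix factor needed for the fibroblast lineage, was the transcription factor of the set. Its counts were 167, 164 and 230 in the order DMSO, cyclopamine, GANT61. The DMSO and cyclopamine libraries were alike within counting error at -0.09 (-0.41 to 0.23), and GANT61 was the high one at 0.50 (0.21 to 0.80). Thus Tcf21 was higher in the library where Thy1 was lower, although Tcf21 was not called against DMSO. Against cyclopamine it stood at 0.584 (0.30 to 0.89), just under the limit, and passed it with 5 of the alternative settings. Its dimer partners, a list of 3 E-protein genes, had 0 called in cyclopamine and 1 lower in GANT61, Tcf4 at -0.75, with Tcf3 at -0.33 and Tcf12 at 0.26.

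Dcn and Lum encode decorin and lumican, small leucine-rich proteoglycans that coat collagen fibrils. The genes are neighbours on the plus strand of chromosome 10, Dcn at 97479609 to 97518143 and Lum at 97565128 to 97572703, 47 kb apart with no annotated gene between them. Dcn counts were 229 (DMSO, Poisson interval 200.3 to 260.7), 411 (cyclopamine) and 460 (GANT61). Both inhibitor libraries were above DMSO, by 1.71-fold in cyclopamine (log2 0.78, 0.55 to 1.02) and 2.06-fold in GANT61 (1.04, 0.81 to 1.28). GANT61 stood 0.26 above cyclopamine (0.07 to 0.46), which was not called. Lum had 62, 80 and 45 counts, and neither value against DMSO excluded no difference, 0.30 (-0.19 to 0.81) in cyclopamine and -0.41 (-1.01 to 0.15) in GANT61. Between the inhibitors Lum was lower by size in GANT61, at -0.70 (-1.29 to -0.18). The 2 neighbours thus did not move as a pair: the ratio of Dcn to Lum TPM was 1.55, 2.15 and 4.29 in DMSO, cyclopamine and GANT61.

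Postn (chromosome 3, 54361109 to 54391037, plus strand) encodes periostin, a matricellular protein abundant in the neonatal heart and in activated fibroblasts, and had the most counts of the 10. Its 6643, 6639 and 5142 counts gave -0.06 in cyclopamine (-0.11 to -0.01) and -0.33 in GANT61 (-0.38 to -0.28). The cyclopamine library lay near DMSO and the GANT61 library lower, 1.26-fold. Because Thy1 and Postn hold most of the counts, the summed markers follow them: the CPM sum was 335.5, 311.9 and 244.9, and without Postn 155.1, 139.1 and 101.2.

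The remaining matrix genes had between 78 and 149 counts in each library. Dpt (chromosome 1, 164796644 to 164824266, plus strand), which encodes dermatopontin, a decorin-binding matrix protein, had 121, 92 and 100 counts. Its log2 values were -0.45 in cyclopamine (-0.86 to -0.05) and -0.23 in GANT61 (-0.63 to 0.16), and it was not called. Mfap5 (chromosome 6, 122505845 to 122529290, plus strand), a microfibril-associated glycoprotein gene, had 98, 149 and 125 counts. It was the only marker beside Dcn that was above DMSO in both inhibitor libraries, at 0.53 (0.17 to 0.93) and 0.39 (-0.002 to 0.79), and was not called in either. Fbln1 (chromosome 15, 85205949 to 85286535, plus strand) encodes fibulin-1, a basement membrane and elastic fibre protein, and had 133, 118 and 78 counts. Cyclopamine lay within counting error of DMSO at -0.23 (-0.60 to 0.13), and GANT61 was lower by size at -0.72 (-1.15 to -0.32), 1.64-fold.

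**Figure D2:**
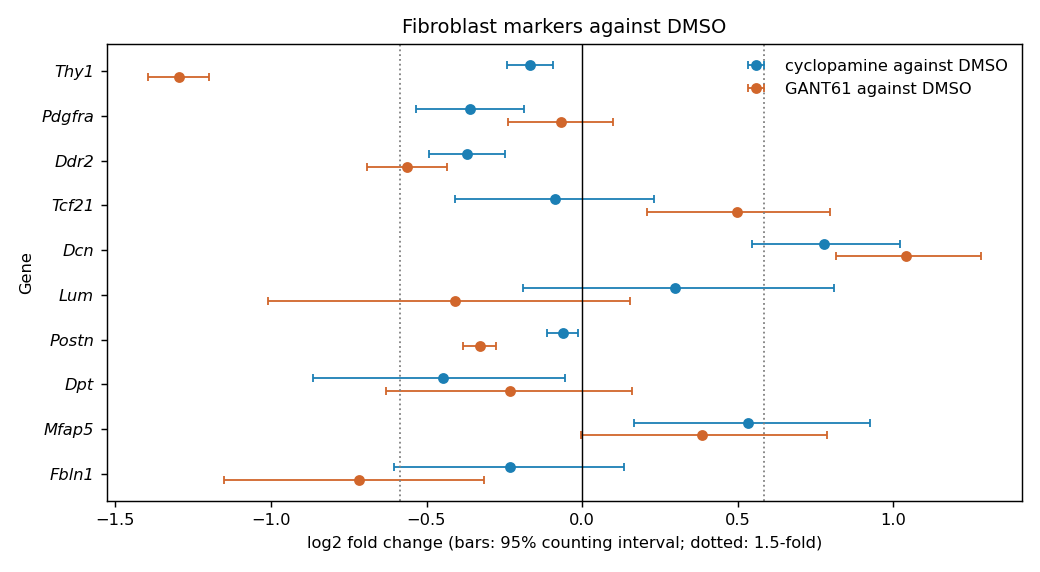
Log2 fold changes of the 10 fibroblast markers in cyclopamine (blue) and GANT61 (orange) against DMSO, with 95% counting intervals as bars and dotted lines at 1.5-fold. Dcn lies to the right of the line in both comparisons at 0.78 and 1.04, and Thy1 lies farthest to the left in GANT61 at -1.30.

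GANT61 was also set directly against cyclopamine, at doses given in different units that cannot be matched. Of the 10 markers 2, Thy1 and Lum, were lower by size and 0 higher, against 15% of all genes, 6.16% higher and 8.83% lower. The values ran from -1.13 for Thy1 to 0.58 for Tcf21, with a median of -0.17. Pdgfra, at 0.29 (0.11 to 0.47), and Dpt, at 0.22 (-0.20 to 0.65), stood higher in GANT61, and Ddr2, at -0.19 (-0.33 to -0.06), Postn, at -0.27 (-0.32 to -0.21), Mfap5, at -0.15 (-0.51 to 0.20), and Fbln1, at -0.49 (-0.93 to -0.07), lower. None of these 6 was called. This comparison uses the same inhibitor libraries as those above.

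Families of the 10 genes were read next. Of 9 measured small leucine-rich proteoglycan genes, Dcn and Lum included, cyclopamine had 3 higher and 1 lower by size (median 0.03) and GANT61 had 2 higher and 2 lower (median -0.41). Dcn and Podnl1 were the 2 higher in both, the latter on 6, 17 and 28 counts. Podn, which encodes podocan, was at 0.77 in cyclopamine and 0.04 in GANT61. Bgn, the biglycan gene and the closest relative of Dcn in the list, was at -0.02 and -0.42 with 13554, 13906 and 9876 counts, and Ogn, the osteoglycin gene, was at 0.03 and -0.41. The higher level of Dcn was thus not shared by Bgn, Ogn or Lum in GANT61.

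Of 6 measured fibulin genes none was called in cyclopamine (median 0.006), and in GANT61 1 was higher and 2 lower (median -0.28). Fbln1 and Hmcn1, the hemicentin-1 gene, at -1.35, were the lower 2, and Efemp1, at 2.48 on 39, 59 and 221 counts, was the higher one. Efemp1 and Podnl1 fell below 5 CPM on average and were named after their values were seen. Fbln2, the most abundant fibulin gene here, was near DMSO at 0.04 and 0.02, Efemp2 at -0.03 and -0.09, and Fbln5 at -0.40 and -0.48. Of 12 elastic fibre and microfibril genes, which include Mfap5, 0 were higher in either comparison, and 4 were lower in cyclopamine and 6 in GANT61 (medians -0.35 and -0.53). Eln, the elastin gene, had 2560, 1693 and 984 counts and was at -0.66 and -1.34. Emilin1, an elastic fibre glycoprotein gene, was at -0.90 and -1.23. The latent TGF-beta binding protein genes Ltbp3, at -0.68 and -0.96, and Ltbp4, at -0.58 and -0.81, were lower too, Ltbp4 by size in GANT61 alone. Mfap5 thus lay on the other side of DMSO from these 4, which were named for their large folds. It was not alone: Emilin2 was at 0.38 and 0.13, and 3 of the 12 genes were above DMSO in each comparison.

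The PDGF system holds Pdgfra, its sister receptor and their ligands. Of 7 genes 0 were called in cyclopamine, and 1 was higher and 1 lower in GANT61 (medians 0.008 and -0.19). The ligand gene Pdgfc was at 0.26 and 0.61 and Pdgfb at 0.008 and 0.56, whereas Pdgfa was at -0.10 and -0.31. Pdgfrb, the receptor of pericytes and fibroblasts, had 1073, 1133 and 916 counts, and the ratio of Pdgfra to Pdgfrb TPM was 0.308, 0.237 and 0.334. Among 6 measured integrin and syndecan genes whose products bind CD90 (medians 0.07 and -0.05), 1 was lower by size in each comparison, Itgb3, which encodes integrin beta 3, at -0.59 and -1.27. Itgav, its alpha partner, was at 0.07 and -0.30, Sdc4 at 0.47 and 0.23, and Itga5 at -0.19 and -0.15. Thy1 and Itgb3 were thus both lower by size in GANT61.

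Further lists of fibroblast genes were read beside the 10 markers. Of 16 measured regulators and surface genes 0 were higher and 2 lower in cyclopamine (median -0.11), and 2 were higher and 5 lower in GANT61 (median -0.09). Mrc2, a collagen uptake receptor gene, was at -0.85 and -1.15, Cd248, the endosialin gene, at -0.62 and -0.97, and Cd34 at 0.32 and -0.67, whereas Pdpn, the podoplanin gene, was at 0.56 and 1.31. Pdpn is also a gene of mesothelium. Of 26 measured matrix and secreted genes 3 were higher and 3 lower in cyclopamine (median -0.24), and 3 were higher and 9 lower in GANT61 (median -0.41). Col14a1, a fibril-associated collagen gene, was at -0.41 and -1.64, Col6a3 at -0.93 and -1.48, and Mgp, the matrix Gla protein gene, at -0.41 and -1.26. Gas6, the ligand of the receptor AXL, was the farthest above DMSO at 1.47 and 2.04, with 4420, 12780 and 17682 counts. Of 14 measured genes of fibroblast activation 0 were higher, and 2 were lower in cyclopamine and 5 in GANT61 (medians -0.24 and -0.43). Thbs4, a thrombospondin gene, was at -0.49 and -1.74, Acta2, smooth muscle actin, at -0.73 and -0.69, Tnc, tenascin-C, at -0.62 and -0.62, and Timp1 at -0.18 and -0.57. Acta2 is also a gene of immature cardiomyocytes. Ly6a, Fap, Pi16 and Clec3b, markers of other fibroblast states, had at most 9 counts in any library and did not pass the filter.

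**Figure D3:**
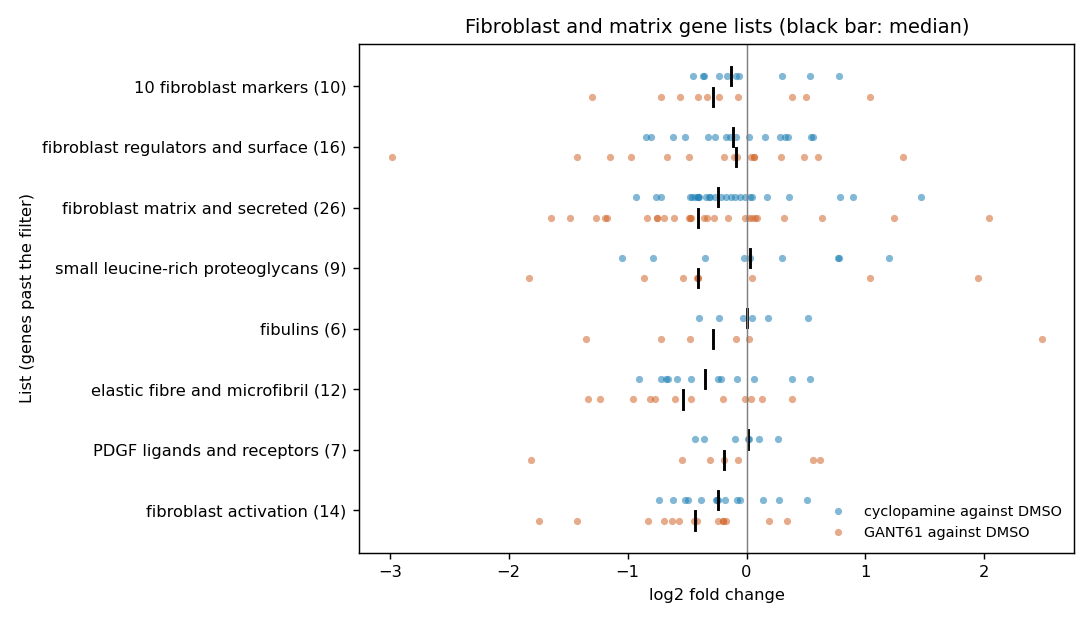
Log2 fold changes against DMSO of the genes past the filter in 8 lists, 1 point per gene, cyclopamine in blue and GANT61 in orange, with the median as a black bar. Some genes are in several lists. In the 10 markers the medians lie at -0.13 and -0.28, and every list has genes on both sides of 0.

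Markers of other cells that could hold the same genes were summed in each library, and their part in the results above was not tested. The 10 epicardial and mesothelial markers summed to 119.0, 119.3 and 218.3 TPM in the same order, and 3 were higher by size in cyclopamine (median 0.18), against 9 in GANT61 (median 2.13). Upk1b was at 1.05 and 2.90, Lrrn4 at 0.68 and 2.80, and Msln, mesothelin, at 0.63 and 2.17. In cyclopamine 5 of the 10 were above DMSO and 5 below. Among those below were Aldh1a2, at -0.57 and 0.695, and Wt1, at -0.25 and 0.66, the latter within counting error in cyclopamine. Krt19, at -0.04 and 0.48, gave most of the sum. Muc16, 1 of the 9 in GANT61, had only 2, 2 and 14 counts. Tcf21 and Dcn, which are made by epicardium and its derivatives as well as by fibroblasts, were also highest in GANT61. Dcn was higher by size in cyclopamine too, at 0.78. There 3 of the 10 epicardial and mesothelial markers were higher by size, while their sum, mostly Krt19, was near that of DMSO. Tcf21 was not called against DMSO, and a link to these markers was not tested. Endothelial markers summed to 62.6, 56.9 and 51.8 TPM, and of 9 measured 0 were higher, while 1 was lower for cyclopamine and 2 for GANT61 (medians -0.29 and -0.37). Pecam1, which encodes CD31, was at -0.26 and -0.76, Tie1 at -0.02 and -0.38, Egfl7 at -0.29 and -0.37, and Emcn at 0.06 and -0.13. Smooth muscle and pericyte markers summed to 801.5, 499.9 and 465.4 TPM, and of 7 measured, cyclopamine had 2 higher and 1 lower, GANT61 1 higher and 2 lower (medians 0.18 and -0.17). Cnn1, the calponin gene, was lower by size in both at -1.81 and -2.77. Abcc9, at 0.89 and -0.15, Cspg4, at -0.29 and -0.46, and Mcam, at -0.37 and -0.13, are made by muscle cells too, and the pericyte genes Vtn and Higd1b were at 0 counts and Rgs5 at 6 or fewer.

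Macrophage markers were scarce, at 22.5, 33.3 and 14.6 TPM in sum, and of 7 measured, cyclopamine had 2 higher and 0 lower, GANT61 1 higher and 2 lower (medians 0.43 and -0.57). Lyz2, lysozyme, led with 274, 465 and 163 counts. Lyz2 and Cd14 were the 2 higher in cyclopamine, Cd14 on 2, 15 and 8 counts. Csf1r was the 1 higher in GANT61, on 40, 57 and 107 counts. Lyz2 and Cd68 were the 2 lower in GANT61, Cd68 on 41, 51 and 17 counts. Ptprc had 4, 12 and 2 counts. A gene could pass the filter through the 1 library where it was high, so calls and medians at such counts carry little weight. The 10 cardiomyocyte markers had 0 called in cyclopamine and 1 lower in GANT61 (medians 0.07 and -0.14), Actn2, the Z-disc actinin gene, at -0.66, with Pln at 0.44 and -0.24, Tnnt2 at 0.04 and -0.32 and Myh7 at 0.19 and 0.31. All 10 mitosis genes were lower by size in both inhibitor libraries (medians -1.72 and -2.40), Ccnb1 at -1.91 and -2.78, Birc5 at -1.88 and -2.58, Plk1 at -1.86 and -2.52, and Ccna2 at -1.66 and -2.50. Which cells carried them cannot be told from bulk RNA.

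**Figure D4:**
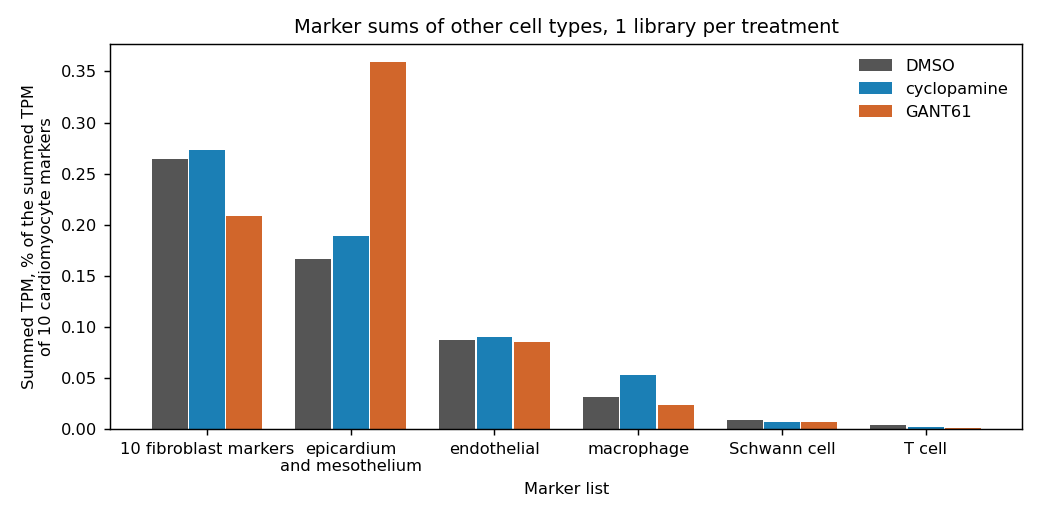
Summed TPM of marker lists as a percent of the summed TPM of 10 cardiomyocyte markers, 1 bar per library. The fibroblast markers stand at 0.264%, 0.273% and 0.209%, and the epicardial and mesothelial list at 0.166% in DMSO, 0.189% in cyclopamine and 0.359% in GANT61. Most of the cardiomyocyte sum is Nppa, so the bars depend on its level. Most of the epicardial and mesothelial sum is Krt19 in each library, so those bars depend on Krt19 too. The smooth muscle and pericyte list is not drawn, since muscle cells share its deepest genes.

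The genes whose pattern over the 3 libraries was most like that of Thy1 were found by the distance over both log2 fold changes against DMSO, among 9773 genes of at least 5 CPM on average. The nearest was mt-Co2, a mitochondrially encoded cytochrome oxidase gene, at -0.19 in cyclopamine and -1.28 in GANT61, whose reads can be split with near-identical nuclear copies. Also among the nearest 5 were Ccdc69, at -0.12 and -1.30, the neuronal tubulin gene Tubb3, at -0.14 and -1.24, and the hemojuvelin gene Hjv, at -0.13 and -1.23. Hjv had 1884, 1797 and 780 counts. Of the other 9 markers, Lum, Dpt, Mfap5 and Fbln1 were under 5 CPM on average and not searched, and none of the 5 searched was among the nearest 5; 3 libraries give the measure no error.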

How the data were processed

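The authors deposited raw read counts per gene, whole numbers with no normalization per the file headers, in 3 columns, 1 per treatment; the column codes are tied to no replicate. They also deposited their mean of counts over both inhibitor columns, a signal value that was not used, and lists of higher and lower genes holding the same counts. The build GRCm38 and the tools HISAT2 2.1.0, featureCounts, Trimmomatic 0.33 and FastQC are named, per the submitters' processing notes; neither annotation nor strand setting is given in the sources used here. The edgeR quasi-likelihood test foreseen for replicate columns could not be run. With R 4.3.3, genes were kept by edgeR 4.0.16 filterByExpr (15576 of 55487) and TMM-scaled log2 CPM was computed (prior count 2). With 1 column per treatment, a gene could pass this filter on 1 library alone. Intervals are exact conditional binomial (fold changes) or exact Poisson (counts). TPM used merged exon lengths of GENCODE mouse release 21, which held 55227 of the gene IDs. The call rule and its intervals were tested on simulated data with counting noise only. That test could not address differences between replicates, which the simulation did not hold. Alternatives were DESeq2 1.42.0 size factors, library size with and without mitochondrial genes, other filters, prior counts and fold limits. In other lists, up to 4 genes with the largest fold and at least 5 CPM on average were named, others after their values were seen; 1 gene that the rule on likeness to Thy1 selects is not reported here. The markers and lists were chosen with earlier results of these data known. Counts are printed for each of the 10 markers, since depth sets their intervals, and for some of the other genes. Of the 10 markers, Pdgfra and Ddr2 share exon bases with another gene model, and at most 0.363% of 50-base windows of any of them occur in another gene.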

Additional observations from a re-analysis of the deposited data

How the results depend on the processing

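No paired analysis was possible because the table holds 1 column per treatment with no replicate number, and no replicate could be left out for the same reason. The 6 marker values called by size were recomputed under 6 alternatives of scaling, filter and prior count, and kept direction and call in all 34 values this gave; Fbln1 and Lum, each called once, were not tested with the 5 CPM filter. Of the values not called, 6 became calls under an alternative. These were Tcf21 in GANT61 against cyclopamine, at 0.587 with DESeq2 size factors, 0.617 with library size only, 0.596 without mitochondrial genes, 0.595 with no filter and 0.588 with a prior count of 0.5, and Ddr2 in GANT61 against DMSO, at -0.589 with at least 5 CPM in 2 libraries. That filter left 5 markers and 1 call in GANT61 against cyclopamine in place of 2, since Lum was no longer tested. In GANT61 against DMSO the number stayed at 3, with Fbln1 no longer tested and Ddr2 called. The numbers of markers called rest on the fold limit. At 1.2-fold they were 5 in cyclopamine against DMSO, 6 in GANT61 against DMSO and 7 between the inhibitors, in place of 1, 3 and 2. At 2-fold they were 0, 2 and 1. Over all genes, calls in the same 3 comparisons numbered 1771, 3378 and 2335, and 3831, 6616 and 5209 at 1.2-fold, 952, 1820 and 1141 at 2-fold, and 447, 1460 and 753 with the 5 CPM filter. For Lum, Dpt, Mfap5 and Fbln1, with 45 to 149 counts, differences under 1.5-fold were mostly within counting error.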

Other observations

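The authors' deposited lists compare the mean of both inhibitor columns with the control at 1.2-fold. Of the 10 fibroblast markers 2, Dcn and Mfap5, are in the authors' deposited table of 6612 higher genes, and 4, Thy1, Ddr2, Dpt and Fbln1, are in that of 6461 lower genes. Pdgfra, Tcf21, Lum and Postn are in neither. Together the lists hold 13073 genes, beside 22450 genes with a count in any library. The 6 of 10 markers listed are thus near the share over all genes with a count. Averaging the inhibitors hides the split of Tcf21, which had 164 counts in cyclopamine and 230 in GANT61, and of Lum, which had 80 and 45.

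Markers of the 2 other CD90-bearing or nerve-associated cell types were near the floor of detection. Of 8 T cell genes, 6 had 0 counts in DMSO, Cd3d, Cd3g and Cd8a had 0 in all 3 libraries, and the list summed to 2.79, 1.54 and 1.00 TPM, mostly from Trac with 30, 14 and 9 counts, the 1 measured gene, at -1.05 and -1.51. A count of 0 has an upper Poisson limit of 3.69 counts. Of 8 Schwann cell genes the sums were 6.34, 4.79 and 4.50 TPM, and of the 5 measured 1 was higher and 1 lower by size in cyclopamine and 1 lower in GANT61 (medians -0.82 and 0.26).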
